A study of Rattus norvegicus with 8 samples.

Results

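The immediate early and stress response genes Atf3, Dusp1, Btg2, Egr2 and Ptgs2 were followed in purified rat retinal ganglion cells (RGCs), the neurons that send the axons of the optic nerve. They were chosen by name and make up 5 of the 32623 gene IDs counted. The RNA-seq libraries came from Sprague Dawley rats, 4 from embryos at E21 (embryonic day 21) and 4 from pups at P11 (postnatal day 11), each from a litter of its own. At both ages the retinas were dissociated with papain, more of it at P11 than at E21, macrophages were removed on an antibody-coated dish, and RGCs were then held on an anti-Thy1 dish and released with trypsin, so the cells of every library passed through hours of handling before their RNA was taken. None of the libraries analysed here came from undissociated retina, and age and the amount of papain cannot be told apart in these samples. The study compared the stages because the capacity of RGCs to grow axons declines between them. Citing earlier work, it held that expression changes from dissociation are small and confined to immediate early genes. It judged the method suitable for comparing the stages.

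Immediate early genes are switched on within minutes of a stimulus from factors that are already present in the cell, such as CREB on the cAMP response element and serum response factor on the CArG box, and their transcripts decay quickly. In neurons they answer synaptic activity, growth factors, calcium entry and injury, and Atf3 in particular is known as a gene of axotomized neurons. The 5 genes take different parts: Atf3 and Egr2 encode transcription factors, Ptgs2 an enzyme that makes a signal, and Dusp1 and Btg2 proteins that end signalling or remove messages.

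The stages did not move these genes one way. Atf3, Egr2 and Ptgs2 were higher at P11, 13.3-fold, 6.02-fold and 5.43-fold, from very low counts at E21. Dusp1 stood higher in every E21 library than in any P11 library, by a log2 difference of 0.78 that did not reach the fold threshold, and Btg2 overlapped between the stages. Log2 fold changes are E21 over P11, so that negative values are higher at P11. A gene was called where edgeR's quasi-likelihood test put its adjusted p under 0.01 and its log2 fold change past 1 in either direction. By this rule 3 of the 5 genes were called, all higher at P11, where 16.5% of the 14043 genes tested were called in that direction and 8.16% in the other. All 5 passed the filter on low counts, but Atf3, Egr2 and Ptgs2 were too low at E21 to pass without their P11 libraries. The direction of their calls is therefore not independent of the filter. Their median log2 fold change was -2.44, against 0.0041 over all genes tested. By adjusted p alone, 3 of the 5 genes were higher at P11 and 1 at E21, beside 34.6% and 33.8% of all genes tested. The stages did not overlap for 4 of the 5 genes and for 71.3% of all genes tested. These were 3 genes higher at P11, beside 35.9% of all genes, and 1 higher at E21, beside 35.4%.

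**Figure D1:**
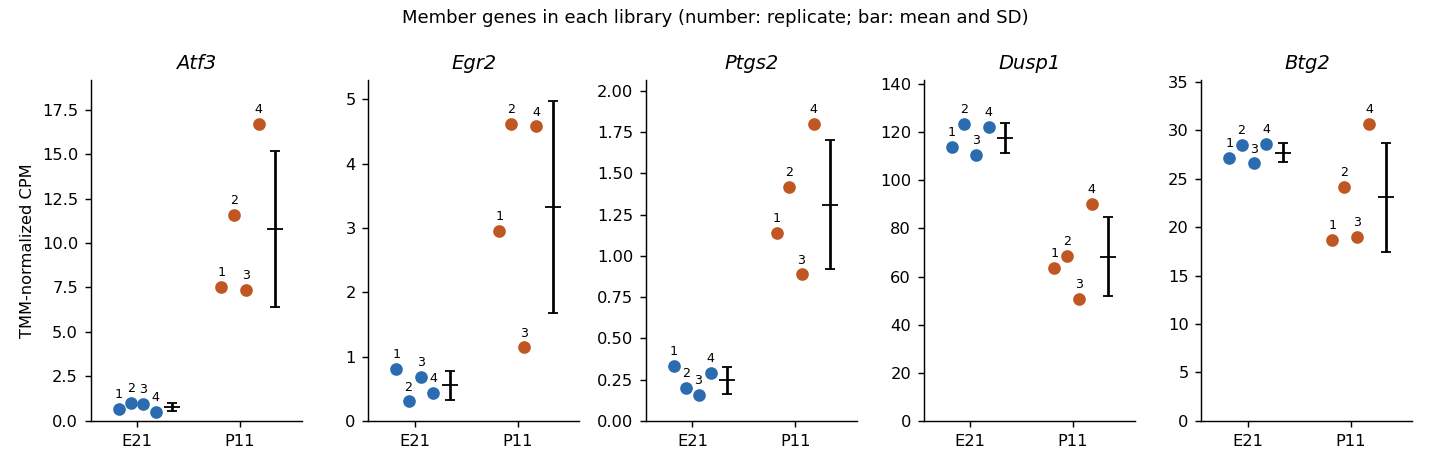
Level of each gene in every library, in CPM (reads of the gene scaled to a common library size by TMM), on a linear axis that starts at 0 and differs between panels. Numbers give the replicate, and bars the mean and SD of 4 libraries. Atf3, Egr2 and Ptgs2 lie higher in all P11 libraries, Dusp1 lies higher in all E21 libraries, and Btg2 overlaps because P11 replicate 4 reaches 30.6 CPM.

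The libraries held between 13899299 and 20116017 counted reads at E21 and between 14780002 and 17756824 at P11. At these depths 3 counts are worth 0.152 to 0.219 CPM, and levels near this floor rest on a few reads. The study reported RGC markers such as Pou4f1 and Rbpms as highly enriched over markers of glial, photoreceptor, bipolar and amacrine cells. Here the defining RGC genes Pou4f1, Rbpms and Thy1 could not be matched to a gene ID. The cell label was therefore checked only against general neuronal genes. Of these, Gap43, an axon growth gene, was called higher at E21, with a mean of 1709 CPM against 622 CPM. Rbfox3, Uchl1 and Nrcam were not called, with means of 119 and 126, 1601 and 1381, and 338 and 311 CPM at E21 and P11. In bulk libraries such as these, fewer cells of a type and less RNA per cell cannot be told apart.

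Atf3 (ENSRNOG00000003745) encodes a basic leucine zipper (bZIP) factor of the ATF/CREB family that cells induce under many stresses, and in neurons after axon damage. At E21 its libraries held 10, 20, 18 and 7 counts, or 0.669, 1.01, 0.944 and 0.511 CPM in the order of replicates 1 to 4. At P11 they held 112, 196, 116 and 306 counts, or 7.52, 11.6, 7.36 and 16.7 CPM. Every P11 library was thus above every E21 library, and within P11 replicates 1 and 3 lay close together while replicate 4 was highest. The stage means were 0.784 ± 0.235 CPM at E21 and 10.8 ± 4.39 CPM at P11 (SD, n = 4 each). The log2 fold change was -3.73 with a standard error of 0.34 (95% interval -4.49 to -2.97, edgeR adjusted p = 1.46e-06), the largest change among the 5 genes.

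Egr2 (ENSRNOG00000000640), also called Krox20, encodes a zinc finger factor that neurons induce with activity and that Schwann cells need for myelination. Its E21 libraries held 12, 6, 13 and 6 counts, or 0.803, 0.304, 0.681 and 0.438 CPM. The P11 libraries held 44, 78, 18 and 84 counts, or 2.95, 4.61, 1.14 and 4.58 CPM. P11 replicate 3 was the low library and stood only a little above the highest E21 library, while replicates 2 and 4 were nearly level. The means were 0.557 ± 0.227 and 3.32 ± 1.65 CPM (SD, n = 4 each), and the log2 fold change of -2.59 (SE 0.46, edgeR adjusted p = 0.000263) carried the widest error of the 5 genes, with a 95% interval from -3.60 to -1.59.

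The Egr2 promoter in the RefSeq table, covering 250 bases before to 50 after the gene's start, held the kind of site that serum response factor binds. Its CArG box lies 83 bases before the start, followed by the shortened form of the cAMP response element on the other strand 66 bases before it. Both stretches are shown because they are the elements through which this class of gene is known to be induced. Capitals mark the match, and the sequences read in the direction of the gene, which is on the minus strand at chr20:21054505-21054534 for the CArG box and chr20:21054490-21054519 for the shortened element (GRCr8).
Egr2 CArG box: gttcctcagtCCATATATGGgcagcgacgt
Egr2 shortened cAMP response element: tatgggcagcgaCGTCAcgggttattgaag

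Ptgs2 (ENSRNOG00000002525) encodes the inducible cyclooxygenase, which turns arachidonic acid into the precursor of the prostaglandins and is an immediate early gene in excitatory neurons. Its E21 libraries held 5, 4, 3 and 4 counts, or 0.334, 0.202, 0.157 and 0.292 CPM, so replicate 3 was at the floor of 3 counts. The P11 libraries held 17, 24, 14 and 33 counts, or 1.14, 1.42, 0.888 and 1.80 CPM. All P11 libraries exceeded all E21 libraries, with replicate 4 highest and replicate 3 lowest. The log2 fold change was -2.44 (SE 0.36, 95% interval -3.21 to -1.67, edgeR adjusted p = 1.09e-05) between means of 0.247 ± 0.0811 and 1.31 ± 0.390 CPM (SD, n = 4 each). The transcript was scarce at both ages, with at most 33 counts in a library.

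Dusp1 (ENSRNOG00000003977) encodes a nuclear phosphatase that switches off the p38, JNK and ERK kinases, and its own induction by these kinases closes the loop. Its counts were far above the floor of 3 counts in every library. The E21 libraries held 1701, 2435, 2109 and 1671 counts, or 114, 123, 111 and 122 CPM. The P11 libraries held 945, 1159, 801 and 1654 counts, or 63.4, 68.5, 50.8 and 90.1 CPM. The E21 libraries lay close together and all above the P11 libraries, which were spread out, replicate 4 highest and replicate 3 lowest. Means were 117 ± 6.23 CPM at E21 and 68.2 ± 16.4 CPM at P11 (SD, n = 4 each). The log2 fold change was 0.78 (SE 0.16, 95% interval 0.39 to 1.17), with an edgeR adjusted p of 0.00341 but a fold under the threshold, so it was not called. The adjusted p passed above 0.01 when any of 4 libraries was left out, being 0.0116 without E21 replicate 2, 0.0102 without E21 replicate 4, 0.0130 without P11 replicate 1 and 0.0120 without P11 replicate 2.

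Btg2 (ENSRNOG00000003300) encodes a protein of the BTG/TOB family that is antiproliferative, a target of p53, and a partner of the deadenylases that shorten poly(A) tails. Its E21 libraries held 406, 562, 507 and 391 counts, or 27.2, 28.5, 26.6 and 28.6 CPM. Its P11 libraries held 278, 408, 299 and 562 counts, or 18.7, 24.1, 19.0 and 30.6 CPM. P11 replicates 1, 2 and 3 lay below every E21 library and replicate 4 above every one. The log2 difference was 0.25 (SE 0.14, 95% interval -0.06 to 0.57, edgeR adjusted p = 0.127), from means of 27.7 ± 0.979 and 23.1 ± 5.61 CPM (SD, n = 4 each). Without P11 replicate 4 it was 0.42 with an adjusted p of 0.000169, still under the fold threshold. Without P11 replicate 1 or 3 it was 0.17 or 0.16.

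Dusp1 and Btg2 both have a complete cAMP response element (TGACGTCA) in their RefSeq promoters. This sequence was found in 1.83% of the 33469 promoters in the table, and in 50 of the 1436 named genes tested that had a promoter. The element of Dusp1 lies 124 bases before the start, on the plus strand of chr10:17184718-17184747. That of Btg2 lies 201 bases before the start, on the minus strand of chr13:48087873-48087902, and a site of the form that EGR factors bind, GCGNGGGCG, follows it 166 bases before the start at chr13:48087837-48087866 (GRCr8, capitals mark the match).
Dusp1 cAMP response element: ggcagggcgggTGACGTCAccacccggtca
Btg2 cAMP response element: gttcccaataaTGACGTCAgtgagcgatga
Btg2 EGR site: cgcccgggagGCGCGGGCGagcgggagggc

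Promoters were matched for 4 of the 5 genes, Atf3 having no entry, and both strands were searched for exact letters. The shortened element TGACG, which lies inside every complete element, was in 3 of the 4 promoters and in 21.2% of all promoters. It was in 478 of the 1436 named genes tested that had a promoter. The CArG box was in 1 of the 4, in 1.64% of all and in 14 of the 1436. The EGR site was in 1 of the 4, in 4.98% of all and in 149 of the 1436. The AP-1 site TGANTCA, in 7.33% of all promoters and 89 of the 1436, was in none of the 4. The TATA box letters TATAAA, in 14.2% of all and 108 of the 1436, were also in none of the 4. The Ptgs2 window held none of the sequences searched. Among the 1436 named genes tested that had a promoter, 50 held the complete element. Of these, 2 (4%) were called higher at E21 and 3 (6%) higher at P11, against 7.73% and 14.8% of the 1436. Of 15 other immediate early, primary response or activity-induced genes with a promoter, 10 held the shortened element and 5 the EGR site. The complete element was in 3 of the 15, namely Rcan1, Areg and Vgf. Vgf lay higher in every P11 library (log2 difference -0.83, under the fold threshold), Rcan1 overlapped between the stages and Areg was not tested. A match in these letters is a description of the window and not a measured binding site.

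The genes varied between P11 litters in much the same order whichever stage was higher. P11 replicate 4 was the highest P11 library for 4 of the 5 genes and for 29.4% of all genes tested, the exception being Egr2, for which replicate 2 was highest by a small margin. Atf3, Dusp1 and Ptgs2 had the order of replicates 4, 2, 1, 3 from high to low, which 5.53% of all genes tested had. Replicate 4 was highest and replicate 3 lowest for those same genes, as for 9.39% of all genes tested. The highest P11 library exceeded the lowest 4.04-fold for Egr2, 2.27-fold for Atf3, 2.03-fold for Ptgs2, 1.77-fold for Dusp1 and 1.64-fold for Btg2.

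Some markers of blood vessel cells, 4 of 7, were also highest in P11 replicate 4. Rgs5, a marker of pericytes, stood at 208, 251, 151 and 316 CPM in P11 replicates 1 to 4, and Notch3, the receptor of mural cells, at 155, 201, 121 and 226 CPM, both in the order 4, 2, 1, 3. Flt1, a VEGF receptor of endothelium, had 2.62, 3.96, 2.73 and 5.29 CPM, while Flt4 (6.38, 7.69, 7.74 and 7.03 CPM) was highest in replicate 3. Erg was highest in replicate 4, Sele in replicate 3 and Selp in replicate 2, each at a few counts. The 7 endothelial and mural markers summed to 3.67 to 5.55 CPM at E21 and 284 to 555 CPM at P11. Of these markers 4 passed the filter, and all 4 were called higher at P11, beside 16.5% of all genes tested. Flt1 and Flt4 passed through their P11 libraries alone, with 0 to 5 and 0 to 10 counts at E21. The filter thus partly set this direction, and Erg, Sele and Selp are not in the count. Erg, Sele and Selp had at most 10 counts in any library. The part of vessel cells in the levels of Atf3, Egr2, Ptgs2, Dusp1 and Btg2 was not tested. In P11 replicate 3, the P11 library lowest in Rgs5 and Notch3, these markers still stood at 151 and 121 CPM, against at most 2.56 and 2.41 CPM at E21.

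**Figure D2:**
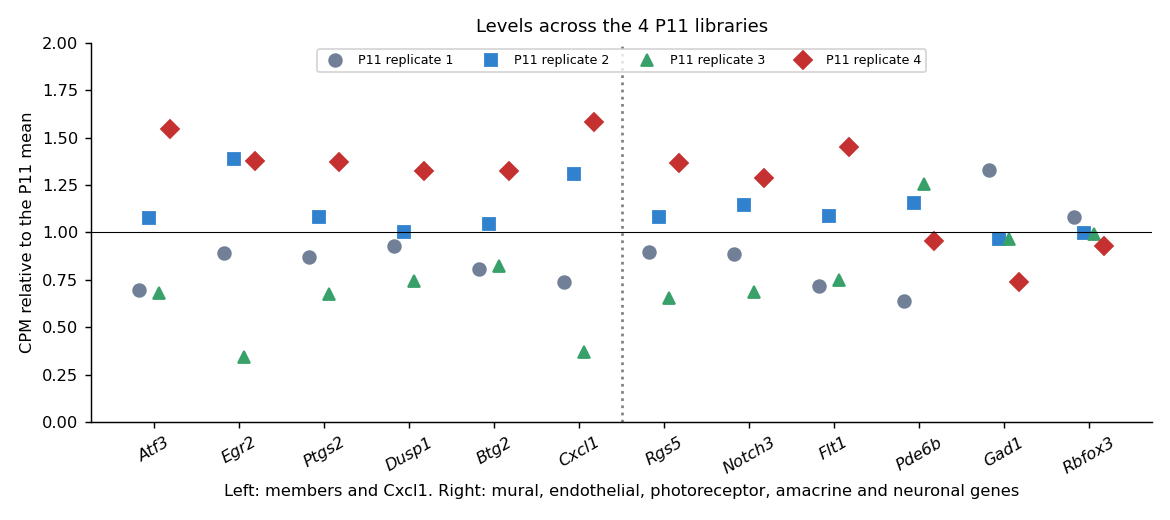
Level in each P11 library divided by the mean of the 4 P11 libraries, for the 5 genes and Cxcl1 left of the dotted line and for markers of other cells and neurons right of it. Symbols stand for replicates and the line at 1 for the P11 mean. Replicate 4 (diamonds) is above the mean for the 5 genes, Cxcl1, Rgs5, Notch3 and Flt1 and below it for Pde6b, Gad1 and Rbfox3. Only some of the markers and rapid response genes examined are drawn. Replicate 4 was the highest P11 library for 3 of the 4 vessel markers tested, Flt4 being below its P11 mean there. Prox1, of amacrine cells, was highest in replicate 4, unlike Gad1. Among the 16 other rapid response genes tested, Cxcl1 included, replicate 4 was highest for 6.

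Markers of other retinal cells differed among themselves. Pde6b, of rod photoreceptors, stood at 4.16, 7.51, 8.18 and 6.21 CPM in P11 replicates 1 to 4, and Gad1, of amacrine cells, at 18.4, 13.4, 13.4 and 10.2 CPM, with replicate 4 lowest. Prox1, the other amacrine marker, had 2.55, 2.37, 2.54 and 3.05 CPM, with replicate 4 highest, and was called higher at E21 (log2 fold change 1.18, adjusted p = 1.60e-06), whereas Gad1 was called higher at P11 (-4.03, adjusted p = 9.10e-10). The 6 photoreceptor markers summed to 6.99 to 8.49 CPM at E21 and 29.9 to 49.4 CPM at P11. Of these, 4 of 6 were called higher at P11, beside 16.5% of all genes tested. Pde6b, Pdc and Tulp1 among them passed the filter through their P11 libraries alone. The 4 bipolar markers summed to 41.4 to 48.9 CPM at E21 and 87.2 to 94.4 CPM at P11, and most of each sum was Prkca, called higher at P11 (38.2 against 87.4 CPM). Grm6, in contrast, had a log2 difference of 0.82 under the fold threshold, and Lhx4, not tested, was higher in every E21 library. The 2 amacrine markers summed to 6.28 to 7.29 and 13.2 to 20.9 CPM, the higher sum at P11 being that of Gad1. The 4 markers of microglia and leukocytes, cells that induce several of these genes readily, summed to 0.468 to 0.734 CPM at E21 and 0.671 to 1.20 CPM at P11, and none passed the filter, Ptprc having 1 to 6 counts. The 3 astrocyte and Müller cell markers summed to 0.669 to 0.861 and 1.14 to 2.62 CPM, with Gfap at 0 to 3 counts. S100b, the only one of them tested, passed the filter through its P11 libraries alone, with 0 to 1 counts at E21 and 16 to 35 at P11. It was called higher at P11 (-5.45, adjusted p = 3.00e-07), while Sox9, not tested, was higher in every E21 library.

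The spread itself differed between genes and stages. On the log2 scale Dusp1 and Btg2 had SDs of 0.077 and 0.051 among E21 libraries, below the median of 0.103 over all genes tested, and 0.34 and 0.33 among P11 libraries, above the SD of 89.5% and 89.1% of all genes tested (median 0.108). Within the bin of 4681 genes of like mean level, taken by splitting the genes tested into 3 equal bins, 99.7% had a smaller P11 spread than Dusp1 and 97.9% a smaller one than Btg2. In the same bins 68.8% had a smaller E21 spread than Dusp1 and 14.4% a smaller one than Btg2. Against genes of like level the E21 spread of Dusp1 was thus above the median. For Atf3 the SD was 0.35 at E21 and 0.56 at P11, and for Egr2 0.53 and 0.89, the latter above 99.7% of all genes tested. Ptgs2 had 0.41 and 0.39, at counts where sampling error is large. These values are descriptions over 4 libraries each.

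**Figure D3:**
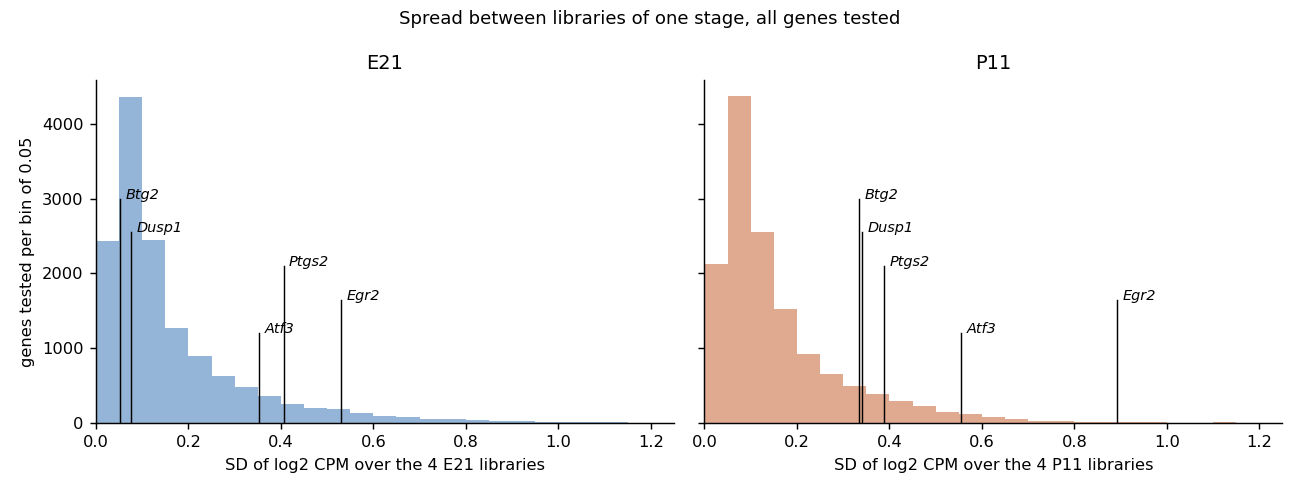
Number of genes tested by the SD of their log2 CPM over the 4 libraries of a stage, E21 left and P11 right, in bins of 0.05, with the 5 genes marked by vertical lines (line height has no meaning, and a few genes lie beyond the axis). Dusp1 and Btg2 stand at 0.077 and 0.051 at E21 and at 0.34 and 0.33 at P11.

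Other rapid response genes were called in both directions. Of 18 immediate early, primary response or activity-induced genes that could be matched, 16 were tested. Fos, Jun and Egr1 could not be matched to a gene ID, so the list lacks well-known immediate early genes and does not stand for the class. Of the 16 tested, 7 were called higher at P11 and 2 higher at E21, beside 16.5% and 8.16% of all genes. Their median log2 fold change was -0.49. The largest change was in Cxcl1, a chemokine (log2 fold change -5.89, SE 0.75, adjusted p = 6.86e-05). It had 0 to 4 counts in the E21 libraries, so this value depends on a few reads, and without E21 replicate 2 it was -6.85. Cxcl1 passed the filter through its P11 libraries alone. At P11 Cxcl1 had 4.16, 7.39, 2.09 and 8.94 CPM, again highest in replicate 4 and lowest in replicate 3.

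Higher at E21 in this list were Socs3, the feedback inhibitor of JAK/STAT signalling, and Trib1, a pseudokinase. Socs3 averaged 5.91 ± 0.344 CPM in E21 libraries and 1.45 ± 0.220 CPM in P11 libraries (SD, n = 4 each, log2 fold change 2.03, SE 0.17, adjusted p = 7.59e-09), against the direction of Atf3. Trib1 had a log2 fold change of 1.03 (SE 0.085, adjusted p = 8.23e-09), which went below 1 under some settings. The following genes were chosen after their values were seen. Nptx2, an activity-induced pentraxin of synapses, rose from 59.7 ± 5.97 CPM to 347 ± 26.5 CPM (log2 fold change -2.54, SE 0.072, adjusted p = 1.51e-12). Adamts1, Rasd1, Ier3 and Tnfrsf12a were called higher at P11 with log2 fold changes of -1.82, -1.68, -1.58 and -1.56. Sik1, a kinase induced through CREB, had 0.47 and Vgf, a secreted peptide precursor, -0.83, neither past the fold threshold. Areg and Cxcl2 had at most 10 counts in a library and were not tested.

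**Figure D4:**
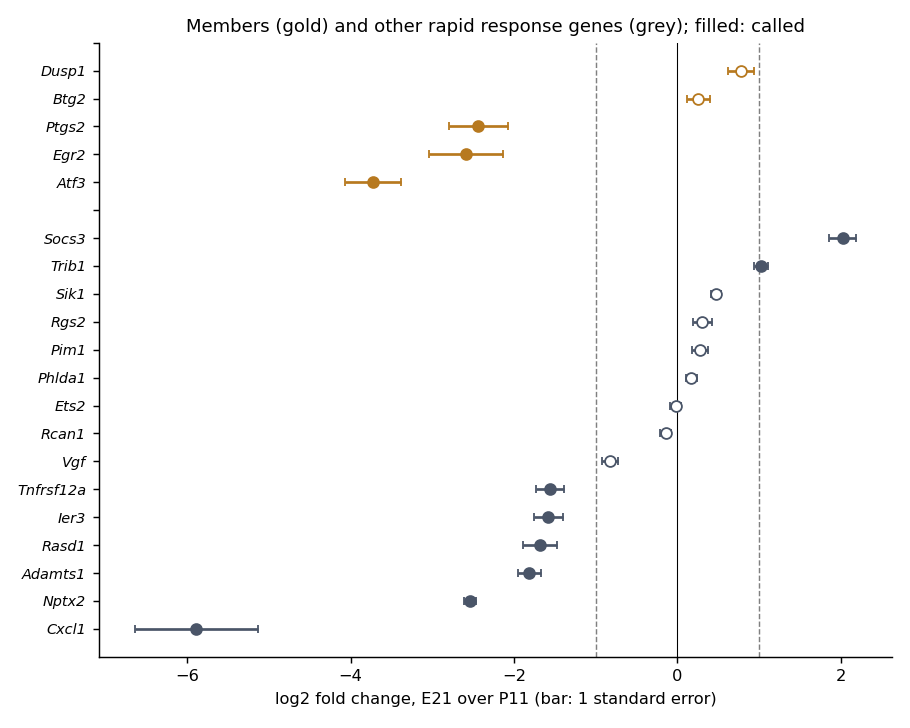
Log2 fold change of E21 over P11 for the 5 genes (gold, top) and 15 of the 16 other rapid response genes tested (grey), with bars of 1 standard error from edgeR. Values left of 0 are higher at P11, dashed lines mark the fold threshold of 1, and filled points are called, from Socs3 at 2.03 to Cxcl1 at -5.89.

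Around Atf3, 6 of 7 other bZIP factors were tested and 1 was called in each direction, beside 16.5% of all genes higher at P11 and 8.16% higher at E21. Hlf, a circadian PAR-type factor, was called higher at P11 (log2 fold change -3.61, SE 0.20, adjusted p = 9.64e-08) and Bach1, a repressor that heme regulates, higher at E21 (1.62, SE 0.097, adjusted p = 2.55e-10). The median of the 6 was 0.19. Atf2, chosen after its value was seen as the closest in name to Atf3, had a log2 difference of 0.30, from means of 108 ± 5.46 and 87.9 ± 3.90 CPM (SD, n = 4 each).

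Around Dusp1, 13 of 15 genes of the MAP kinase cascades were tested and 1 was called, Rps6ka6, a ribosomal S6 kinase downstream of ERK, higher at E21 (log2 fold change 1.87, SE 0.084, adjusted p = 2.96e-12). The share called was 7.69%, beside 24.7% of all genes tested in either direction, and the median was 0.25. Some substrates of Dusp1 were named after their values were seen, and all of these were under the fold threshold. The log2 difference was -0.87 for the JNK gene Mapk10 and -0.61 for the JNK gene Mapk9 (edgeR adjusted p = 2.81e-11 and 4.32e-10). It was 0.25 for the p38 gene Mapk14 (edgeR adjusted p = 0.000516). Dusp10, the other phosphatase of this class in the list, had 0.34.

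Around Ptgs2, only 2 of 5 genes of the prostaglandin and leukotriene pathways had enough counts to test. Ptger1, a prostaglandin E2 receptor, was called higher at E21, opposite to Ptgs2, with 24.9 ± 2.96 CPM against 10.2 ± 0.959 CPM at P11 (SD, n = 4 each, log2 fold change 1.29, SE 0.096, adjusted p = 2.01e-09). Ptges3, a prostaglandin E synthase that also serves as a co-chaperone, had a log2 difference of 0.21. Pla2g4a, which frees arachidonic acid, had 0 to 2 counts at E21 and 2 to 13 at P11, and Alox5ap and Ltc4s of the leukotriene branch had at most 13 and 8 counts.

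Around Btg2, the 7 genes of the BTG/TOB family and the deadenylases were all tested and none was called by edgeR, while 5 had an adjusted p below 0.01 with a higher level at E21, beside 33.8% of all genes tested. At an unadjusted p below 0.05 there were 6, and no setting tried, DESeq2 included, called one. All 7 differences were positive like that of Btg2, from 0.0042 to 0.80, with a median of 0.29. Its relatives, named after their values were seen, had 0.35 for Btg1, 0.80 for Btg3 and 0.22 for Tob1.

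Of 4 textbook p53 targets other than Btg2, 1 was called (25%, beside 24.7% of all genes tested in either direction). This was Cdkn1a, the cell cycle inhibitor p21, higher at P11, from 4.65 ± 1.29 to 24.8 ± 3.63 CPM (SD, n = 4 each, log2 fold change -2.38, SE 0.16, adjusted p = 4.05e-08). Ccng1, Ppm1d and Sesn1 were higher in every E21 library than in any P11 library, with log2 differences of 0.48, 0.50 and 0.61. Their edgeR adjusted p values were 9.60e-09, 8.98e-07 and 4.47e-07, but each was under the fold threshold. By adjusted p alone, 3 of the 4 targets were higher at E21 and 1 at P11. For all genes tested these shares were 33.8% and 34.6%. Of 11 chaperones and stress sensors, 1 was called (9.09%, beside 24.7% of all genes tested in either direction), Hsph1, a large heat shock chaperone, higher at P11 (-1.05, SE 0.069, adjusted p = 4.47e-09), and without P11 replicate 4 its value of -0.99 was no longer past the fold threshold. The median of the 11 was -0.46. By adjusted p alone, 6 of the 11 were higher at P11 and 2 at E21, beside 34.6% and 33.8% of all genes tested.

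The genes with the nearest profiles were sought among 1778 other named genes by the root mean square difference of log2 CPM over the 8 libraries, each gene centred on its own mean. Nearest to Atf3 were Ddr2, Bace2 and Lgals3bp, at 0.248, 0.267 and 0.339, where the median over the genes searched was 1.83. Nearest to Egr2 were Card6, Rcsd1 and Arhgap6, at 0.407, 0.434 and 0.450 (median 1.31), and nearest to Ptgs2 were Sowahb, Arpc1b and Gpc4, at 0.190, 0.215 and 0.228 (median 1.08). Dusp1 lay nearest to Btg3, a relative of Btg2, at 0.115, then to Lama4 and Ift81 at 0.130 and 0.133 (median 0.489). Nearest to Btg2 were Hsd17b10, Aldh9a1 and Tbx2, at 0.0895, 0.101 and 0.139 (median 0.346). The measure is dominated by the difference between the stages where that is large.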

How the data were processed

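RNA was sequenced from 4 E21 and 4 P11 RGC samples, 1 litter each, with ribosomal RNA removed and all libraries in 1 lane. The authors removed adapters with Cutadapt 1.16, checked read quality with PRINSEQ, aligned the reads to Rnor_6.0 with STAR 2.5.3a and counted them per Ensembl gene with HTSeq 0.6.1 (versions from the submitters' processing notes), and deposited raw counts for each library without normalization. The annotation release and strand setting are not given in the sources used here, so overlapping and antisense genes may share reads. The 5 summary rows of each file, which name no gene, held 56.8% to 58.4% of all entries at E21 and 51.7% to 54.8% at P11 and were left out.

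Genes were filtered with filterByExpr (14043 of 32623 kept), scaled by TMM and tested with edgeR 4.0.16 (robust quasi-likelihood, Benjamini-Hochberg over all genes tested, no covariate) in R 4.3.3, with DESeq2 1.42.0 as an alternative. The call needed both an adjusted p under 0.01 and a log2 fold change past 1. Standard errors come from the log2 fold change and its F value. Library spread and profiles use log2 CPM with a prior count of 2. In simulated counts for 14043 genes with 200 changed 4-fold, edgeR called 198 of them and 0 unchanged genes.

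Symbols came from the ID and name columns of a supplementary gene table, which paired 1998 IDs, 1779 of them tested. Its fold changes, p-values and normalized values were not used. Promoters came from RefSeq (GRCr8). The 5 genes and all lists were chosen with earlier results of these data known. In each list the genes named are up to 2 called genes with the largest change in each direction, plus every gene of lists of 5 or fewer, and for each of the 5 genes the 3 nearest profiles. Others are said to be chosen after their values were seen. The results of 2 listed genes are not reported here, though list counts and medians include them. Alternatives were other scalings, tests, filters and thresholds, a replicate block and leaving out each library. P-values measure the spread between 4 litters a stage.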

Additional observations from a re-analysis of the deposited data

Results flagged for a closer look

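Of 74 groups of 4 libraries examined by Dixon's test on CPM, 2 held a library that was flagged, and chance alone gives about 1 in 20. The test sets a gap against the range of the group, so a small difference can be flagged. Ptges3 was slightly low in E21 replicate 1, at 131 CPM, with the other E21 libraries close together at 135.5 to 136.1 CPM. Hlf was high in E21 replicate 2, at 4.61 CPM, with the other E21 libraries close together below it. None of Atf3, Dusp1, Btg2, Egr2 and Ptgs2 had such a library at either stage.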

How the results depend on the processing

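Atf3, Egr2 and Ptgs2 were called, and Dusp1 and Btg2 were not, under each of the alternatives that gave a value. Requiring at least 10 counts in every library gave no value for Atf3, Egr2 and Ptgs2. Leaving out 1 library at a time, the log2 fold change ranged from -3.89 to -3.44 for Atf3, -2.88 to -2.36 for Egr2, -2.61 to -2.25 for Ptgs2, 0.65 to 0.94 for Dusp1 and 0.16 to 0.42 for Btg2. The number of genes called in all ranged from 3447 to 3600 when 1 library was left out and from 2317 (testing against a log2 fold change of 1) to 4205 (no filter beyond 1 count) otherwise. The chaperone list had 0 genes called when tested against a log2 fold change of 1 (Hsph1 adjusted p = 0.394), and 0 to 1 when 1 library was left out, 0 without P11 replicate 4. With no filter beyond 1 count the MAP kinase list and the prostaglandin list each had 2 genes called. The other rapid response genes called numbered 8 to 9 when 1 library was left out and 6 to 10 otherwise, 6 with at least 10 counts in every library, which tests fewer genes. Trib1 was below a log2 fold change of 1 by library size alone (0.97), by upper-quartile scaling (0.98), under the 10-count minimum (0.98) and without E21 replicate 1 or P11 replicate 4 (0.99 each). Its adjusted p was 0.684 against a log2 fold change of 1. The cause of these changes was not tested. Scaling by library size alone shifted the median log2 fold change of all genes by -0.054. Replicate numbers were not taken to pair the samples, since deviations of same-numbered libraries correlated at -0.025, 0.065, -0.0066 and 0.091. With a replicate block 3463 genes were called, Btg2 had 0.28 (adjusted p = 0.0200) and Dusp1 0.80, and no call on a named gene or list changed. Depth limits Ptgs2, Egr2 and Atf3 at E21, where each library held at most 20 counts.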
